A study of Mus musculus with 9 samples.

Results

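The transcripts of 8 genes of glycogen metabolism were followed across fibroblasts cultured from mouse embryos (MEFs) that carried a control hairpin, a hairpin against Foxk1, or that hairpin with Foxk1 added. The members were the genes Gys1, Gbe1, Ugp2, Pygl, Pygb, Ppp1r3c, Pgm1 and Pgm2, taken by gene symbol from the authors' annotation, so 8 of the 20672 genes on the array were studied. They are covered by 15 probe sets, and a gene takes its value from whichever of its probe sets has the highest mean over the 9 arrays, called the brightest here. The study has 3 groups of 3 samples, all of MEFs cultured in DMEM: cells with a hairpin RNA against GFP as control (shGFP), cells with a hairpin against the forkhead transcription factor Foxk1 (shFoxk1), and cells that carry the Foxk1 hairpin plus added Foxk1 (labelled shFoxk1+Foxk1, called rescue here after that label). All groups, the control included, carry a hairpin. The labels do not say whether the replicates are separate cultures, how the hairpins and the added Foxk1 are driven, or whether the lines are clones, so the p-values cover the spread between these samples alone, and that spread may be technical.

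Glycogen is the branched store of glucose in the cytosol. Glucose 6-phosphate is turned into glucose 1-phosphate by phosphoglucomutase, charged by UDP-glucose pyrophosphorylase, added to the growing chains by glycogen synthase and branched by the branching enzyme, while glycogen phosphorylase removes glucose units again. Protein phosphatase 1, held on glycogen by targeting subunits such as Ppp1r3c, switches the synthase on and the phosphorylase off. In human cells the hypoxia factor HIF1 is known to induce several genes of glycogen synthesis. The arrays measure transcripts in bulk RNA, in which fewer cells that make a transcript and less of it per cell cannot be told apart. Neither glycogen nor enzyme activity was measured in the files used here.

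The mouse phosphoglucomutase genes have exchanged names, so they were told apart by Entrez identifier. The gene with identifier 72157, called Pgm2 in the authors' annotation, is Pgm1 in RefSeq, and the gene with identifier 66681, called Pgm1 there, is Pgm2 in RefSeq. The RefSeq names are used throughout.

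The promoters of the members that changed, Pgm1 and Gys1, and of the other phosphoglucomutase gene, Pgm2, are shown because these 3 genes carry the contrast in the results. Each window runs from 250 bases before to 50 bases after the annotated start of the gene, 5′ to 3′ on the strand of the gene (RefSeq, GRCm38.p6). It lies at chr4:99929201-99929500 on the plus strand for Pgm1, at chr7:45434589-45434888 on the plus strand for Gys1 and at chr5:64092689-64092988 on the plus strand for Pgm2. Capitals mark ACGTG, the core of the site bound by HIF1, read on either strand, so that CACGT is the same core on the opposite strand.
Pgm1: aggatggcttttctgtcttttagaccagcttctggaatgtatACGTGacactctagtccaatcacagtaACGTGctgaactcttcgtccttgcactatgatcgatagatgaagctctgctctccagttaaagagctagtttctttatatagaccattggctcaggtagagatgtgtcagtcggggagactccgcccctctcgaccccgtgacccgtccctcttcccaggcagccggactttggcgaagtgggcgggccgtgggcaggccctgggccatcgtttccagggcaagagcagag
Gys1: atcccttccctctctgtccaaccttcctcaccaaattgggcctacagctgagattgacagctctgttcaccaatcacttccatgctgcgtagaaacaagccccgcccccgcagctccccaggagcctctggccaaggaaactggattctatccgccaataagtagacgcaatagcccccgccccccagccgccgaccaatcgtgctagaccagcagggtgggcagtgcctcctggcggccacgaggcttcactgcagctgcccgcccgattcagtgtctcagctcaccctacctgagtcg
Pgm2: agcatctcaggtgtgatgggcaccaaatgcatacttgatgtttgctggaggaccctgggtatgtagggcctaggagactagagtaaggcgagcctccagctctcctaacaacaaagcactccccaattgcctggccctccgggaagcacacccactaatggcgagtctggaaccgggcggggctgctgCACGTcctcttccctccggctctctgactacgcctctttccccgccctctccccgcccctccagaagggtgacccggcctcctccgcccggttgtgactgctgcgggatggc

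All 8 members matched a promoter in the RefSeq table, Ugp2 with 2 starts. The letters ACGTG, searched on both strands, occurred in 19.6% of all 32851 promoter windows of this length. In Pgm1 they stood at -208 to -204 and at -181 to -177 from the start, and in Pgm2 once, at -62 to -58 on the opposite strand. They were not in the windows of Gys1 and Gbe1. Ppp1r3c held 3 matches, of which a pair overlaps on both strands of one CACGTG, and Pygl, Pygb and the upstream start of Ugp2 held 1 each. The related letters GCGTG (32.4% of windows) were found in Ugp2, Pygl, Pygb and Ppp1r3c and not in Pgm1, Pgm2, Gys1 or Gbe1. The forkhead core TAAACA (13.4% of windows) was in none of the members' windows. Matches of letters are a description of these windows and show no binding.

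The check of the labels and the background for the members came from all genes. Foxk1 stood at 8.94 ± 0.05 (mean log2 ± SD, n = 3) in shGFP, 7.82 ± 0.12 in shFoxk1 and 7.86 ± 0.16 in rescue, so its brightest probe set showed the knockdown (-1.12, SE 0.08, adjusted p = 5.18e-05) and no return in rescue (0.04, adjusted p = 0.869). Where its probes lie was not available for this work, and a probe set outside the added sequence would not see it. Any other Foxk1 probe set was not read, so the rescue label is left unchecked here. Of the fibroblast markers, 9 of 10 reached the median level over all genes (6.56), against 1 of 5 hepatocyte, 2 of 7 skeletal muscle, 1 of 7 macrophage and blood cell, 0 of 5 endothelial, 2 of 6 epithelial and 2 of 5 neural markers. The macrophage marker Csf1r stood high, at 9.97, beside Ptprc at 4.14 and Adgre1 at 4.50, and it was called lower in shFoxk1 (-0.38, adjusted p = 0.00237) and in rescue (-0.38, adjusted p = 0.00237) against shGFP. Fn1, the matrix protein fibronectin, was called higher in shFoxk1 (0.54, adjusted p = 0.000394) and in rescue (0.65, adjusted p = 0.000197) against shGFP, and the collagen gene Col3a1 in rescue (0.22, adjusted p = 0.0135). These were all the calls among the 45 markers. The mean level of the 7 blood cell markers was 5.71 to 5.75 in shGFP, 5.65 to 5.73 in shFoxk1 and 5.67 to 5.79 in rescue. That of the fibroblast markers was lower on all shGFP arrays (11.57 to 11.61) than in shFoxk1 (11.65 to 11.67) and rescue (11.66 to 11.71). That of the epithelial markers was 5.63 to 5.69 in shGFP, 5.62 to 5.72 in shFoxk1 and 5.75 to 5.85 in rescue, higher on all rescue arrays. The endothelial markers had a higher mean level on all rescue arrays (4.987 to 4.995) than in shGFP (4.838 to 4.957), with shFoxk1 overlapping both (4.871 to 4.996). That of the neural markers was lower on all shFoxk1 arrays (6.69 to 6.71) than in shGFP (6.72 to 6.77) and rescue (6.74 to 6.78), and that of the hepatocyte markers was higher on all shFoxk1 arrays (5.996 to 6.124) than in shGFP (5.963 to 5.992). The part of these shifts in the results was not tested. Arrays of a group correlated at 0.998 or more across genes, and rescue replicate 2 lay apart from the other rescue arrays on the second principal component (-14.9 against 0.57 and -4.15).

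**Figure D1:**
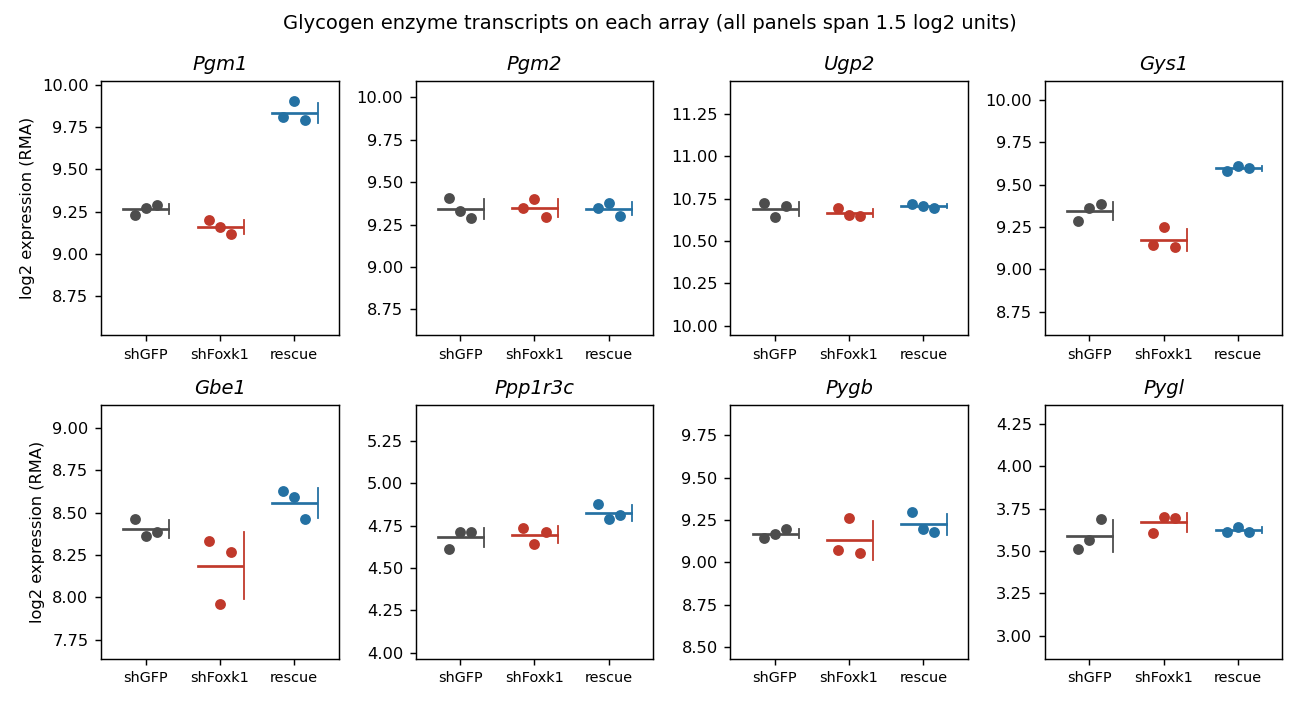
Log2 expression (RMA, y axis) of the brightest probe set of each glycogen gene on the 9 arrays, in groups shGFP, shFoxk1 and rescue (x axis); points are arrays, horizontal lines group means and vertical lines ± SD (n = 3). The rescue arrays of Pgm1 (9.79 to 9.90) and Gys1 (9.58 to 9.61) lie above all arrays of the other groups, while the groups of Pgm2, Ugp2, Pygb and Pygl overlap.

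For Foxk1 knockdown alone, tested as shFoxk1 against shGFP, none of the 8 members passed an adjusted p of 0.05 in limma. There 4.24% of all genes were called. Gys1 came closest of the members (adjusted p = 0.0918) and passed in 3 of 18 alternatives. The median difference over the members was -0.03, against 0.0031 over all genes. At an unadjusted p under 0.05 there were 2 members, Gys1 and Gbe1, both with lower means in shFoxk1, beside 16.8% of all genes. In Gys1, Gbe1 and Pgm1 all 3 shFoxk1 arrays lay below all 3 shGFP arrays, and in no member did they all lie above, while 10.4% of all genes stood apart in the lower direction. Across all genes 408 were called higher and 468 lower, and 295 and 577 when each array was centred on its median.

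In rescue against shFoxk1, which differ by label in the added Foxk1, 2 of the 8 members rose, Pgm1 and Gys1, and none fell. The brightest Foxk1 probe set, which alone was read, differed by only 0.04 between these groups. The label of the rescue group is therefore left unchecked here. Of all genes 0.953% were called, made up of 0.653% called higher and 0.300% called lower. The members were chosen with earlier results of these data known, so the shares over all genes are no test of the list in any comparison. In 4 members, Pgm1, Gys1, Gbe1 and Ppp1r3c, all rescue arrays lay above all shFoxk1 arrays, as in 8.46% of all genes. The median difference over the 8 members was 0.11, against 0.01 over all genes. The largest difference in a member, 1.60-fold in Pgm1, held the 4th smallest p of the whole table. The mean level of the epithelial markers was also higher on all rescue arrays than on all shFoxk1 arrays (5.75 to 5.85 against 5.62 to 5.72), and so was that of the neural markers (6.74 to 6.78 against 6.69 to 6.71). None of the 45 markers was called by limma in this comparison, with 5 at an unadjusted p under 0.05, and their part in the results was not tested.

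Rescue cells set against the shGFP control differed in the same 2 genes, Pgm1 and Gys1, both higher, and in 0 members in the lower direction. The background in this comparison was 5.04% of genes called, made up of 2.50% called higher and 2.54% called lower. When each array was centred on its median, 315 genes were called higher and 771 lower, in place of 516 and 526. With that centring Pgm1 (0.52, adjusted p = 0.00014) and Gys1 (0.20, adjusted p = 0.0422) stayed called in limma. All rescue arrays stood above all control arrays in Pgm1, Gys1 and Ppp1r3c, as for 12.0% of all genes. The median difference was 0.10, against 0.02 over all genes. The 3 comparisons share arrays in pairs, so their values for a gene are not independent of each other.

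**Figure D2:**
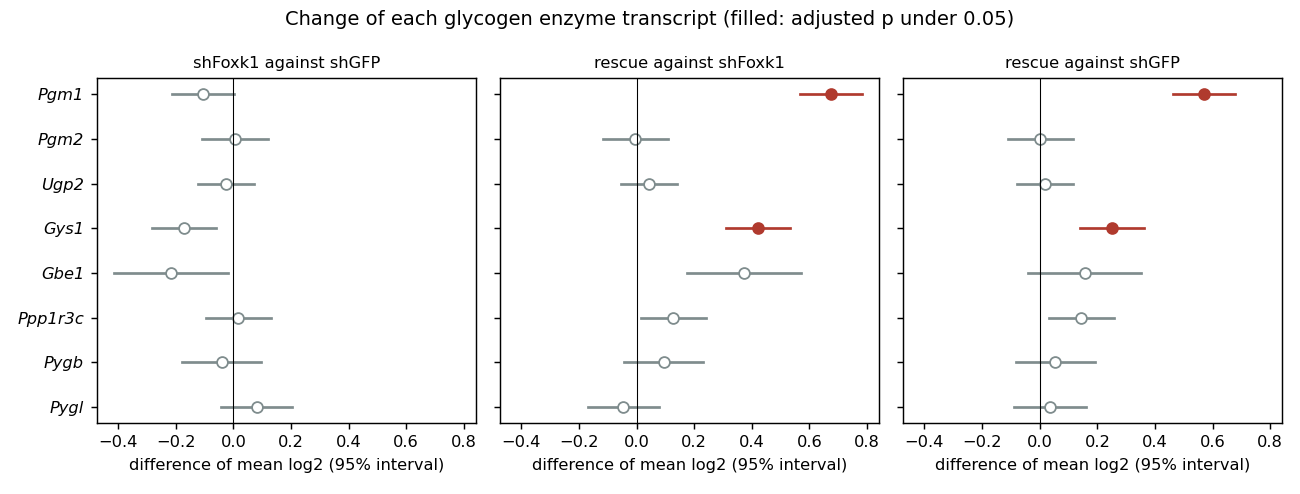
Difference of mean log2 values (x axis) for each glycogen gene (y axis) in the 3 comparisons, with 95% intervals of the limma fit; filled points have an adjusted p under 0.05. Filled points are Pgm1 (0.67 and 0.57) and Gys1 (0.42 and 0.25) in the comparisons with rescue, and there is none for shFoxk1 against shGFP.

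Pgm1 had the largest difference among the 8 members. It encodes the main cytosolic phosphoglucomutase, which interconverts glucose 6-phosphate and glucose 1-phosphate. Its log2 levels were 9.23, 9.27 and 9.29 in shGFP, 9.20, 9.16 and 9.12 in shFoxk1, and 9.81, 9.90 and 9.79 in rescue. The rescue arrays lay well above both other groups, and the shFoxk1 arrays just below the control arrays. Pgm1 rose by 0.67 in rescue against shFoxk1 (SE 0.05, 95% interval 0.57 to 0.78, adjusted p = 0.000232). Against shGFP it rose by 0.57 (SE 0.05, 1.49-fold, adjusted p = 0.000197). The knockdown difference was -0.10 (95% interval -0.21 to 0.0035, adjusted p = 0.314). Its second probe set lay low on the arrays, with a mean of 4.64, and in rescue against shFoxk1 its difference was 0.20 (adjusted p = 0.456, adjusted over all probe sets). In rescue against shGFP that dim probe set differed by 0.06 (adjusted p = 0.836), and its groups overlapped in both comparisons. Averaging both probe sets gave 0.44 in rescue against shFoxk1 (adjusted p = 0.00956) and, against shGFP, 0.32 (adjusted p = 0.0150).

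Pgm2 encodes a relative that acts mainly on phosphopentoses. The log2 levels of Pgm2 were 9.41, 9.33 and 9.29 in shGFP, 9.35, 9.40 and 9.29 in shFoxk1, and 9.35, 9.38 and 9.30 in rescue. The groups overlapped fully. The difference of rescue and shFoxk1 was -0.0037, with a 95% interval of -0.12 to 0.11 that lies below the whole interval of Pgm1. Within the phosphoglucomutase family, the list of other pathway genes adds Pgm2l1, with -0.06 in both shFoxk1 against shGFP and rescue against shFoxk1, and Pgm5, with -0.11 and 0.17, none of them called; these were named after their values were seen.

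Ugp2 encodes UDP-glucose pyrophosphorylase, which makes UDP-glucose, the donor for glycogen synthesis. Its levels over all 9 arrays spanned 0.08, from 10.64 to 10.72, the narrowest range among the 8 members. Group means were 10.69 ± 0.04, 10.66 ± 0.03 and 10.71 ± 0.01 (SD, n = 3) in shGFP, shFoxk1 and rescue. The difference of rescue and shFoxk1 was 0.04 (95% interval -0.06 to 0.14, adjusted p = 0.706). The other 4 Ugp2 probe sets differed by 0.0012 to 0.10 in that comparison, and 0 of them was called.

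Chain growth and branching differed in their calls. Gys1 encodes the glycogen synthase of muscle and most other tissues. Its log2 levels were 9.29, 9.36 and 9.38 in shGFP, 9.14, 9.25 and 9.13 in shFoxk1, and 9.58, 9.61 and 9.60 in rescue. The 3 groups did not overlap, with shFoxk1 lowest and rescue highest. Gys1 rose by 0.42 in rescue against shFoxk1 (SE 0.05, 1.34-fold, adjusted p = 0.00321). It also rose by 0.25 against shGFP (SE 0.05, 1.19-fold, adjusted p = 0.0164). The latter call was lost without shGFP replicate 1 (adjusted p = 0.0745) or 2 (0.0529), and without rescue replicate 2 (0.0512) or 3 (0.0597). The knockdown difference was -0.17 (95% interval -0.28 to -0.06, adjusted p = 0.0918). That difference passed the threshold when arrays were weighted (adjusted p = 0.0292), when low genes were filtered out (0.0275) and when variances were fitted with a trend and robustly (0.0440). The dimmer Gys1 probe set, whose name ending in _s_at marks probes that can match more than one transcript, had a mean of 6.22. It differed by 0.12 in rescue against shFoxk1 (adjusted p = 0.494) and by -0.04 in rescue against shGFP (adjusted p = 0.839), opposite in sign to the brighter one. As the mean of both probe sets, Gys1 differed by 0.27 in rescue against shFoxk1 (adjusted p = 0.0261) and by 0.10 against shGFP (adjusted p = 0.276), where the call was lost.

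Gbe1 encodes the branching enzyme, which moves stretches of a chain to form branch points. Its log2 levels were 8.47, 8.36 and 8.39 in shGFP, 8.33, 7.96 and 8.27 in shFoxk1, and 8.63, 8.59 and 8.46 in rescue. All shFoxk1 arrays lay below the arrays of both other groups, with replicate 2 the lowest by far, while rescue and shGFP overlapped. The difference of rescue and shFoxk1 was 0.37 (SE 0.09, 95% interval 0.17 to 0.57, adjusted p = 0.108), close in size to that of Gys1 with a wider spread. It passed when low genes were filtered out (adjusted p = 0.0426) and when variances were fitted with a trend and robustly (0.0278). Without shFoxk1 replicate 2 it was 0.26 (adjusted p = 0.105), and the knockdown difference was -0.10 in place of -0.22.

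Ppp1r3c encodes a targeting subunit, also called PTG, that brings protein phosphatase 1 to glycogen. Its levels were low, 4.61, 4.71 and 4.71 in shGFP, 4.74, 4.64 and 4.71 in shFoxk1, and 4.88, 4.79 and 4.81 in rescue. The rescue arrays stood above all others by a small margin. The difference was 0.13 against shFoxk1 (SE 0.05, adjusted p = 0.308) and 0.14 against shGFP (adjusted p = 0.163), neither called. Both probe sets of the gene were dim, brighter than 27.7% and 26.9% of all probe sets, which limits what they can show, and the second differed by 0.17 from shFoxk1 (adjusted p = 0.508).

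Breakdown was represented by the phosphorylases, which release glucose 1-phosphate from chain ends. Pygb, the form named for brain, had group means of 9.17 ± 0.03, 9.13 ± 0.11 and 9.22 ± 0.06 (SD, n = 3) in shGFP, shFoxk1 and rescue, and the arrays of all groups overlapped. Its difference between rescue and shFoxk1 was 0.09 (95% interval -0.04 to 0.23, adjusted p = 0.528). Pygl, the form named for liver, lay between 3.51 and 3.70 on all arrays, with its probe set among the dimmest 1.39% of the array, which limits what it can show. The third form, Pygm, known from muscle, stood at 4.34, 4.34 and 4.40 in the 3 groups and was not called.

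**Figure D3:**
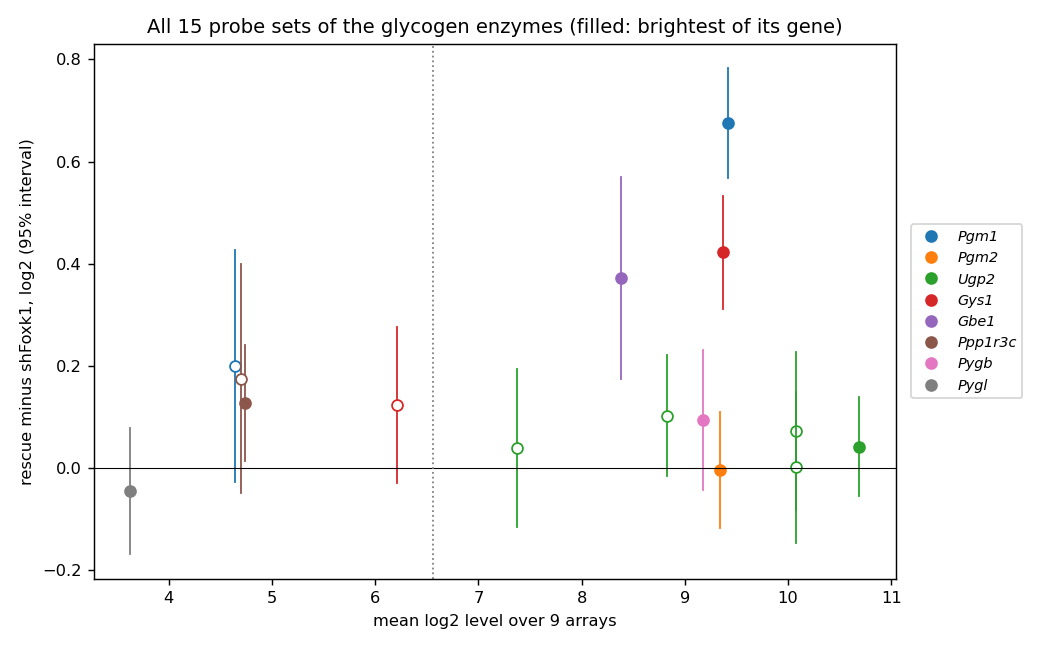
Difference of rescue and shFoxk1 (y axis, log2, with 95% intervals) against the mean log2 level over 9 arrays (x axis) for all 15 probe sets of the glycogen genes; filled points are the brightest of each gene and the dotted line is the median level of all genes (6.56). The dimmer probe sets of Pgm1 (0.20) and Gys1 (0.12) show smaller differences than the brightest ones (0.67 and 0.42), and the 5 probe sets of Ugp2 lie between 0.0012 and 0.10.

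The rest of the pathway was read from a list of 28 further genes, all on the array. In rescue against shFoxk1 none of the 28 passed the limma test, beside only 0.953% of all genes called. There were 5 at an unadjusted p under 0.05 (13.8% of all genes), and the median was 0.04. In shFoxk1 against shGFP 1 fell and 27 did not pass, beside the 4.24% of all genes called, with a median of -0.0071 and 8 at an unadjusted p under 0.05 (16.8% of all genes). In rescue against shGFP 1 fell and 27 did not pass, beside 5.04% of all genes called, with a median of 0.06 and 3 at an unadjusted p under 0.05 (18.0% of all genes). The gene that fell in both was Stbd1, which encodes a protein that binds glycogen and anchors it to membranes on the way to the lysosome. Its log2 levels were 7.25, 7.09 and 7.22 in shGFP, 6.46, 6.60 and 6.10 in shFoxk1, and 6.59, 6.21 and 6.21 in rescue. Both groups with the Foxk1 hairpin lay below the control and overlapped each other. Stbd1 fell by 0.80 on the log2 scale in shFoxk1 against shGFP (SE 0.13, adjusted p = 0.00666) and by 0.85 in rescue against shGFP (SE 0.13, adjusted p = 0.00432). The difference of rescue and shFoxk1 was -0.05 (95% interval -0.34 to 0.24), so its low level was not seen to return. Both calls were kept in all 18 alternatives run.

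Gyg, Pygm and Gys2 were not called in any comparison. Glycogenin, Gyg, the protein primer of new glycogen, had means of 11.29 ± 0.03, 11.30 ± 0.01 and 11.25 ± 0.03 (SD, n = 3) in shGFP, shFoxk1 and rescue. Gys2, the synthase of liver, stood at 5.35 ± 0.11, 5.41 ± 0.04 and 5.43 ± 0.08, below the median of all genes.

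**Figure D4:**
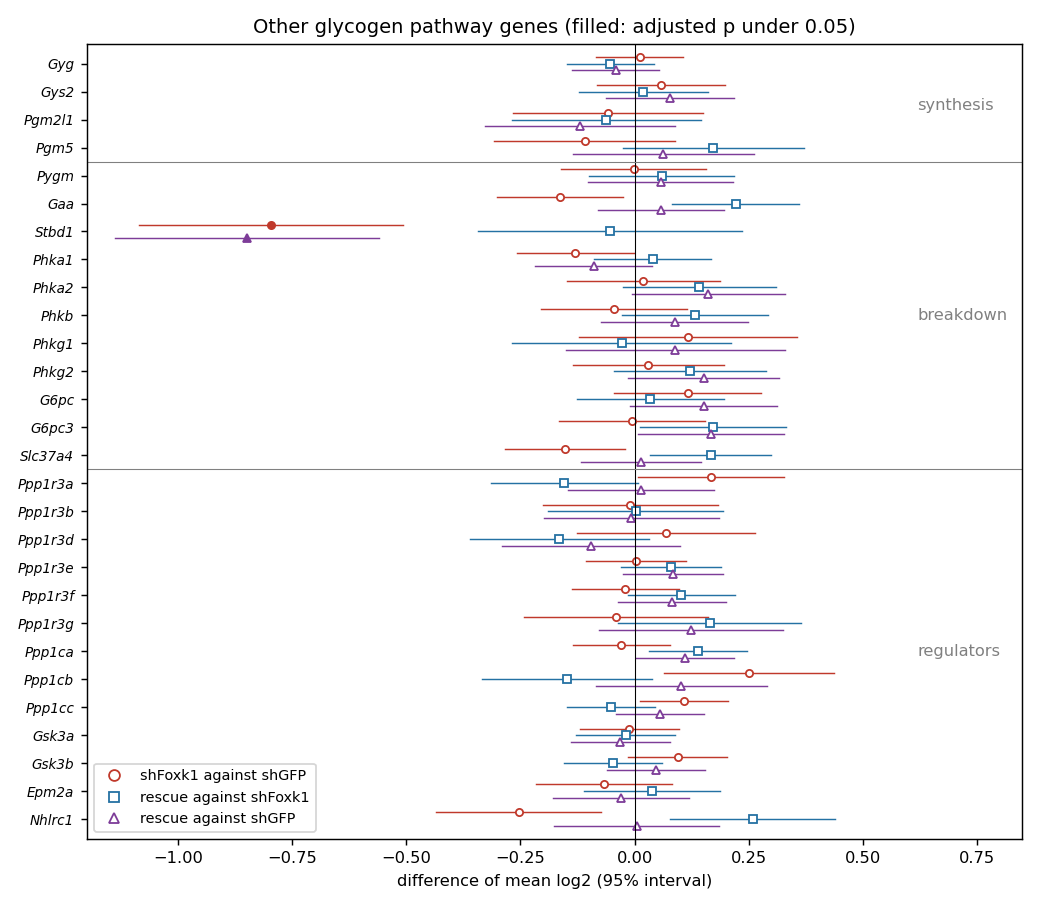
Difference of mean log2 values (x axis, with 95% intervals) for 28 other glycogen genes (y axis), grouped as synthesis, breakdown and regulators, in the 3 comparisons; filled symbols have an adjusted p under 0.05. The filled symbols belong to Stbd1 (-0.80 and -0.85), and the other genes lie between -0.25 and 0.26.

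Genes with a pattern like that of the changed members were found by Pearson correlation of log2 values over the 9 arrays, among 9858 named genes at or above the median level and outside the glycogen lists. Closest to Pgm1 were Egln1, a prolyl hydroxylase that acts in oxygen sensing (r = 0.990), Gpi1, glucose 6-phosphate isomerase (0.983), and Ppp1r18 (0.983). Closest to Gys1 were Crabp1, a retinoic acid binding protein (0.988), Hk1, a hexokinase (0.983), and Dcn, the matrix proteoglycan decorin (0.981). In rescue against shFoxk1 their differences were 0.30, 0.18 and 0.16 for the genes like Pgm1 and 0.45, 0.33 and 0.67 for those like Gys1. The arrays fall into 3 groups, so such values mostly describe the order of the groups, and they were chosen as the highest among many.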

How the data were processed

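Total RNA of 9 samples was measured on arrays with 45101 probe sets. Per the submitters' processing notes, the authors deposited log2 expression values made with RMA in the affy package (versions not known here). RMA makes the distributions of all arrays alike, so differences in total RNA are removed. The authors' deposited tables give a log2 fold change, p-values and the scores t and B per probe set, per the file headers. The tool that made them is not stated. A limma fit of all probe sets here called as many, 1238 in shFoxk1 against shGFP and 170 in rescue against shFoxk1. Its log10 p-values differed from the deposited ones by at most 1.23e-07. The deposited values served for this check and for annotation. Here, 64 array controls were left out, and 38089 named probe sets (35121 with an Entrez identifier found in RefSeq, GRCm38.p6, used for names) gave 20672 genes, each at its brightest probe set.

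A mean per group was fitted with limma 3.58.1 in R 4.3.3 over all 9 arrays without covariates (6 residual and 4.46 prior degrees of freedom), two-sided, with Benjamini-Hochberg adjustment over all genes, and calls needed an adjusted p under 0.05 but no fold. Dimmer probe sets were tested in a fit of all probe sets. Precision is limited by the number of arrays, with a median SE of 0.0642 for a difference. The fit was also run on simulated data with noise independent between arrays, and the outcome is not given here. That setting leaves out the shared deviations of same-numbered arrays. Members and lists were chosen with earlier results of these data known. Named genes were all members, Foxk1, called genes of the other glycogen lists, Gyg, Pygm and Gys2, and the 3 genes most like each called member; a further listed gene is not reported here. Same-numbered samples of different groups deviated together in all 9 pairs (correlations 0.0598 to 0.230), and those of rescue and shFoxk1 at 0.126 to 0.230. Among arrays of the other groups, each of the 9 arrays deviated most like an array of its own number. The numbers were therefore taken to mark sets shared by all 3 groups, and what they stand for is not labelled. The main fit ignores these sets, and the replicate block takes them in. The replicate block, filters, probe set choices, variance models, scaling and leaving out arrays were alternatives.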

Additional observations from a re-analysis of the deposited data

How the results depend on the processing

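Pgm1 and Gys1 kept their calls in rescue against shFoxk1 in all 18 alternatives (0.44 to 0.70 and 0.27 to 0.46), and so did Pgm1 in rescue against shGFP (0.32 to 0.59). Members called in shFoxk1 against shGFP were 1 (Gys1) with array weights, with trend and robust variance and with the filter on low values, and 0 when any 1 array was left out. In rescue against shGFP 1 member was called as the mean of probe sets, and 1 to 2 without 1 array. In rescue against shFoxk1 the count was 3, with Gbe1 added, under the filter on low values and under trend and robust variance. It was 2 there when any 1 array was left out. Other glycogen genes called in shFoxk1 against shGFP were 3 with trend and robust variance, 2 with array weights and 1 to 2 without 1 array. In rescue against shFoxk1 they were 1 with trend and robust variance and 0 to 1 without 1 array, and in rescue against shGFP 2 with trend and robust variance. Genes called overall in shFoxk1 against shGFP (876) were 1501 with the filter, 1530 with trend and robust variance, 1541 with array weights and 460 to 943 without 1 array. In rescue against shFoxk1 (197) they were 382, 481, 359, 77 with only the 6 arrays compared and 74 to 219. In rescue against shGFP (1042) they were 1614 with the filter, 1640 with trend and robust variance and 567 to 1026 without 1 array. The filter keeps only genes at or above the median level, so its counts come from fewer genes. With all probe sets tested, 1583 were called in rescue against shGFP. That is a count of probe sets out of the 45101 less the controls, and cannot be set against 1042 of 20672 genes. The causes of these shifts were not tested.

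Signs turned only for members near 0 that were never called. In shFoxk1 against shGFP, Ppp1r3c was -0.031 as the mean of probe sets, -0.0072 with centred arrays and -0.017 to 0.044 without 1 array, and Pgm2 was -0.018 with centred arrays and -0.022 to 0.037 without 1 array. In rescue against shFoxk1, Pgm2 was -0.031 to 0.024 without 1 array. In rescue against shGFP, Pgm2 was -0.011 with array weights, -0.045 with centred arrays and -0.024 to 0.034 without 1 array. There, Ugp2 was -0.029 with centred arrays and -0.0063 to 0.034 without 1 array, and Pygl was -0.011 and -0.0035 to 0.087. The filter on low values leaves Pygl and Ppp1r3c untested. With the replicate number as a block, 1074, 244 and 1223 genes were called in the 3 comparisons, and the block changed no call of a member (Gys1 in rescue against shFoxk1, adjusted p = 0.00785).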

Other observations

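Some other genes of the pathway, picked from the 28 after their values were seen, did not pass the test but had groups that stood apart or were called under an alternative. In shFoxk1 against shGFP 3 of the 28 stood apart higher and 5 lower, beside 2394 and 2160 of all 20672 genes. In rescue against shFoxk1 4 stood apart higher and 3 lower, beside 1748 and 1482 of all genes. Only some of these genes are named below, so they do not stand for the list. Nhlrc1 encodes malin, a ubiquitin ligase that acts with laforin on glycogen, and its levels lay between 4.57 and 4.60 on all shGFP and rescue arrays. The shFoxk1 arrays read 4.55, 4.17 and 4.25, all below them. The differences were -0.25 in shFoxk1 against shGFP (adjusted p = 0.129) and 0.26 in rescue against shFoxk1 (adjusted p = 0.217). Without shFoxk1 replicate 1 they were -0.37 (adjusted p = 0.00647) and 0.37 (adjusted p = 0.0191). All these levels lie below the median of all genes (6.56). By mean level Nhlrc1 was brighter than only 16.0% of genes, which limits what its values and their narrow range can show.

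The catalytic subunits of protein phosphatase 1 are bright on the arrays, and none was called. Ppp1cb differed by 0.25 in shFoxk1 against shGFP (adjusted p = 0.146). It was called with trend and robust variance (0.25, adjusted p = 0.0368), with array weights (0.30, adjusted p = 0.0344) and without shFoxk1 replicate 2 (0.34, adjusted p = 0.0359). Ppp1ca differed by 0.14 in rescue against shFoxk1 (adjusted p = 0.250, and 0.0346 with trend and robust variance) and by 0.11 in rescue against shGFP (adjusted p = 0.264, and 0.0481 with that variance). Ppp1cc differed by 0.11 in shFoxk1 against shGFP (adjusted p = 0.238, and 0.0191 with trend and robust variance). Gaa, the lysosomal enzyme that digests glycogen, had all shFoxk1 arrays below both other groups, with -0.16 in shFoxk1 against shGFP (adjusted p = 0.205) and 0.22 in rescue against shFoxk1 (adjusted p = 0.172). Its probe set name ends in _x_at, which marks probes that can match more than one transcript.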
